A study of Mus musculus with 4 samples.

Results

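The aminoacyl-tRNA synthetases were followed as a group of 36 genes, 20 of them cytosolic and 16 mitochondrial (names ending in 2), out of 25437 gene names in the count tables. The genes were chosen by name, though with earlier results of these data known, and all 36 had counts in all 4 libraries. The mitochondrial aspartyl enzyme is not among the members. The study profiled single cells of whole wildtype mouse embryos of strain B6C3F1/J with BD Rhapsody, a microwell capture method, and each stage has 1 library. The stage labels are EDG7.5, EDG9.5, Reactivated (EDG9.5 followed by 30 h of E2) and, last, E5.5; the series title is about embryonic diapause. Between 200 and 250 pooled blastocysts, flushed from the uterus, went into each of the EDG7.5, EDG9.5 and Reactivated libraries. The E5.5 library came from 50 embryos taken out of their implantation sites. Stage, library and mode of collection cannot be told apart, and since no stage was sampled again, the differences below have neither a replicate check nor a test. A level is given as CPM: the unique molecule counts (UMIs) of a gene are added up across a lineage's cells in 1 library and scaled to the same fixed total, so it is a share of transcripts and not an amount per cell. Intervals in parentheses are 95% intervals that cover counting error only, except those on list medians. These are order-statistic intervals over the member genes and describe the spread between genes.

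Each synthetase joins 1 amino acid to its matching tRNAs and so supplies the ribosome with charged tRNA. Cytosolic and mitochondrial translation use separate enzymes for most amino acids, all encoded in the nucleus. The exceptions among the members are Kars and Gars, single genes whose products charge lysine and glycine tRNAs in both compartments. Eprs is a fused enzyme for glutamate and proline, and Farsa and Farsb are the 2 subunits of the phenylalanine enzyme. Several cytosolic enzymes sit together in the multisynthetase complex on the scaffolds Aimp1, Aimp2 and Eef1e1. Many cytosolic synthetase genes are known targets of the transcription factor ATF4, the effector of the integrated stress response, which is engaged when amino acids run short. Embryonic diapause is a reversible arrest of the blastocyst with low protein synthesis, and in rodents oestrogen ends it.

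The letters of the promoters are shown for the members that hold the ATF4-type element TGATGNAA, since the ATF4 list is one of the groupings used below. Windows from 250 bases before to 50 bases after the start site were taken from RefSeq (GRCm38.p6), where 13 of the 20 cytosolic and 14 of the 16 mitochondrial members had one. The element was searched on both strands, and no other motif was searched. It was found in 5 of the 13 cytosolic windows (38.5%) and in 0 of the 14 mitochondrial windows, against 1219 of 27025 genes with a window (4.51%). All 5 genes were on the list of cytosolic synthetases described as ATF4 targets, where 8 members had a window, while 0 of the 5 other cytosolic windows held it. A match is a string of letters and not a site shown to be bound. The stretches around the matches are printed 5′ to 3′ on the gene's own strand, with the element in capitals (read as its reverse complement where it lies on the opposite strand) and at most 30 bases past the start site.
Aars: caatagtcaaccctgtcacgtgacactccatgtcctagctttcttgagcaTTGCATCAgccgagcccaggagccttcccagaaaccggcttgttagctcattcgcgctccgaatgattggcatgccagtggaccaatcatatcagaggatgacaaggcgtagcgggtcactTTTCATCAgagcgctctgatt
Gars: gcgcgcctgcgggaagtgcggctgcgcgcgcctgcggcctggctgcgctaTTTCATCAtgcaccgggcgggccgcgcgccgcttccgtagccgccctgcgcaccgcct
Iars: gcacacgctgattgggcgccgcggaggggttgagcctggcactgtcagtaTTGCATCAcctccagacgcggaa
Tars: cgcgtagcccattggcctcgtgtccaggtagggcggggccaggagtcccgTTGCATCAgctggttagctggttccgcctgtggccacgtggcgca
Yars: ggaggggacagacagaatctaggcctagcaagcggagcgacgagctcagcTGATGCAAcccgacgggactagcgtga
The Aars stretch lies at chr8:111033680-111033871 (plus strand) and holds the element at -112 and at 9 bases from the start site. The Gars stretch is chr6:55037921-55038028 (plus strand, element at -30), and the Iars stretch is chr13:49682087-49682159 (plus strand, element at 7). For Tars the stretch is chr15:11399629-11399723 (minus strand, element at -15), and for Yars it is chr4:129189856-129189932 (plus strand, element at 3).

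The libraries held 9270833 to 87507141 UMIs over 677 to 9560 barcodes, and the median UMIs per barcode ran from 3724.5 in EDG9.5 to 13154 in Reactivated. Pairs of libraries shared 1 to 27 barcodes, at most 1.33% of the smaller library. Cells were sorted into epiblast, endoderm (primitive endoderm and its visceral and parietal derivatives) and trophoblast by clusters rebuilt here from fixed markers, with 163 to 3629 cells per lineage and library and no cell left unnamed. The names came from these same marker lists, so the sums of the lists describe the lineages and do not check the names. The epiblast list summed to 5917 to 7149 CPM in epiblast and to 145 to 1177 CPM in the other lineages. The endoderm list summed to 6412 to 7302 CPM in endoderm and 27.6 to 314 CPM elsewhere, and the trophoblast list to 3083 to 5486 CPM in trophoblast and 54.6 to 466 CPM elsewhere. Markers of other cell types summed to at most 1.17 CPM (erythroid), 5.06 CPM (immune), 22.4 CPM (decidual stroma), 229 CPM (endothelium) and 267 CPM (uterine epithelium). The lineages below had 1990829 to 33195365 UMIs each.

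The cytosolic enzymes together made up a larger share of transcripts in Reactivated and E5.5 than in EDG9.5, and the difference was largest in trophoblast. In trophoblast the 20 genes summed to 1873 CPM in EDG7.5 (1826 to 1920), 1803 CPM in EDG9.5 (1764 to 1843), 2759 CPM after E2 in Reactivated (2687 to 2833) and, highest, 4217 CPM in E5.5 (4195 to 4239). Epiblast had 2719 CPM in EDG7.5 and 2843 CPM in EDG9.5, then 3375 CPM in Reactivated and 3733 CPM in E5.5. Endoderm had 2775, 2537, 3355 and 2830 CPM in the same 4 libraries. Trophoblast thus stood below both other lineages in EDG7.5, EDG9.5 and Reactivated and above both in E5.5, while endoderm had its highest sum in Reactivated. The trophoblast to epiblast ratio was 0.689 (0.666 to 0.712) at EDG7.5 and 0.634 (0.614 to 0.655) at EDG9.5, then 0.818 (0.790 to 0.846) for Reactivated and 1.13 (1.12 to 1.14) for E5.5. Trophoblast over endoderm gave 0.675 and 0.711 at these diapause stages, 0.8225 for Reactivated and 1.49 for E5.5.

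**Figure D1:**
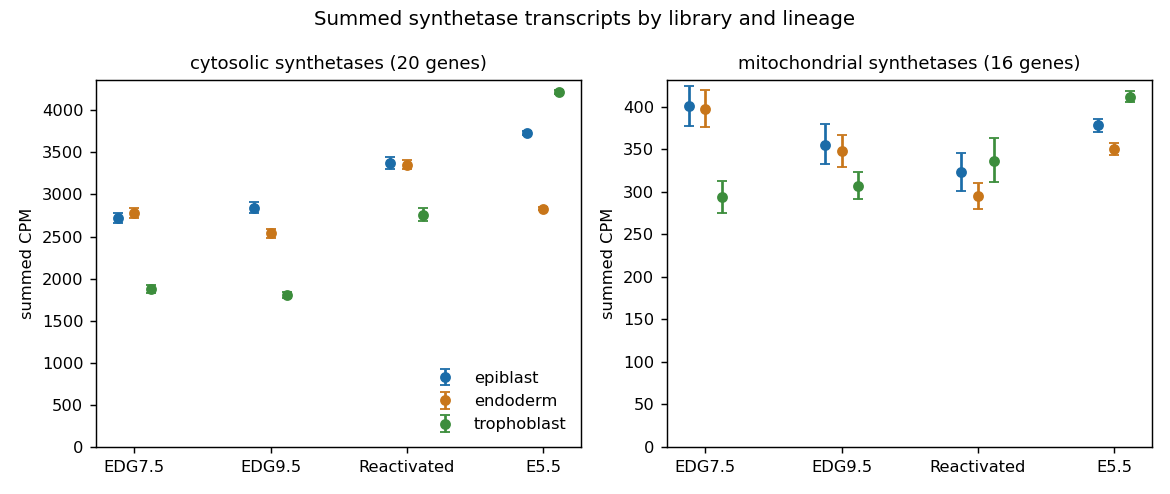
Summed CPM of the 20 cytosolic (left) and 16 mitochondrial (right) synthetase genes in each library, by lineage, with 95% counting intervals as bars. The cytosolic sum in trophoblast is the lowest of the 3 lineages at EDG7.5 and EDG9.5 and the highest at E5.5 (4217 CPM), while the mitochondrial sums stay between 293.3 and 412 CPM.

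Mitochondrial synthetases differed less from EDG9.5 than the cytosolic ones did in Reactivated and E5.5. The gap was widest in E5.5 trophoblast, with ratios of the sums of 1.34 and 2.34. Between the diapause libraries this did not hold. There the EDG9.5 over EDG7.5 ratios were 0.888 in epiblast and 0.875 in endoderm, against 1.05 and 0.914 for the cytosolic sums. The 16 mitochondrial genes summed in epiblast to 400.5, 355.5, 322.7 and 378 CPM, and in endoderm to 397.6, 347.9, 294.6 and 350.3 CPM, in the order of stages above. Trophoblast had 293.3, 307.1, 336.5 and 412 CPM in that order. Epiblast and endoderm were therefore lowest in Reactivated, whereas trophoblast was highest in E5.5. As a share of all synthetase UMIs, the mitochondrial genes made up 12.84% (12.15 to 13.55) of the EDG7.5 epiblast total, 11.11% (10.44 to 11.82) at EDG9.5, 8.73% (8.17 to 9.32) for Reactivated and 9.195% (9.01 to 9.38) for E5.5. In endoderm the share was 12.53%, 12.06%, 8.07% and 11.01%, and in trophoblast 13.54%, 14.55%, 10.87% and 8.90%. It was below the EDG9.5 value in Reactivated and in E5.5 in all 3 lineages, with intervals (Clopper-Pearson) that did not overlap.

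Reactivated embryos were set against EDG9.5 embryos to see how the enzymes differ once E2 is given after diapause. Ratios are given as log2 with 10 CPM added to both sides, for genes with a mean of at least 10 CPM over the 2 sums, and a gene is counted as higher or lower from 1.5-fold on that scale (0.585 in log2). All 20 cytosolic genes passed this level filter in each lineage and comparison. Of the 16 mitochondrial genes, only 9 to 12 did in Reactivated and E5.5 over EDG9.5 and in EDG9.5 over EDG7.5. A mitochondrial gene that passes only through the library where it is high is more likely to be counted as different, so counts over those that passed describe them alone. In trophoblast 13 of 20 cytosolic genes were higher in Reactivated and 1 was lower, where 25.4% of all 7861 genes past the filter were higher and 27.5% lower. In endoderm 7 were higher and 1 lower, against 18% and 29.2% of 8550 genes. In epiblast 4 were higher and 0 lower, against 19.4% and 36.9% of 8575 genes.

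The median log2 ratio of the cytosolic genes was 0.72 in trophoblast (order-statistic interval over the members 0.51 to 0.87), 0.45 in endoderm (0.15 to 0.76) and 0.16 in epiblast (-0.13 to 0.43). All genes past the filter had medians of -0.046, -0.18 and -0.26 in those lineages, so the cytosolic median lay 0.77, 0.62 and 0.41 above that of all genes. Scaling with TMM factors moved the median of all genes to -0.042 in trophoblast, 0.084 in endoderm and 0.016 in epiblast, and the cytosolic list still lay 0.77, 0.66 and 0.47 above it. Under TMM the cytosolic counts became 13 higher and 1 lower in trophoblast, 13 and 1 in endoderm, and 9 and 0 in epiblast. Of all genes, 25.5% were then higher and 27.3% lower in trophoblast, 27.6% and 19.4% in endoderm, and 27.9% and 26.9% in epiblast. The higher genes as a share of all genes called went to 48.3%, 58.7% and 50.9% under TMM, against 48%, 38.1% and 34.5% without it. Statements on level in epiblast and endoderm are therefore best read relative to all genes.

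**Figure D2:**
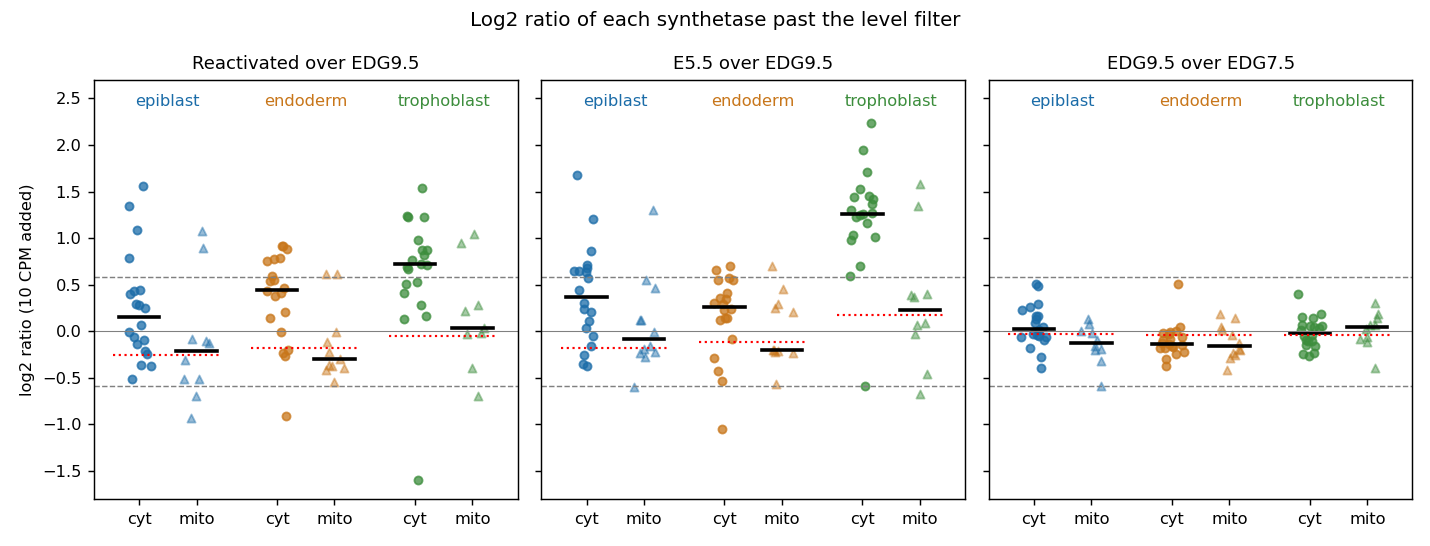
Log2 ratio (y axis, 10 CPM added) of each synthetase past the level filter, by lineage and class (cyt, cytosolic; mito, mitochondrial), for Reactivated over EDG9.5, E5.5 over EDG9.5 and EDG9.5 over EDG7.5. Black bars are list medians, red dotted lines the median of all genes past the filter, and dashed lines 1.5-fold; the cytosolic trophoblast median is 0.72 and 1.26 in the first 2 panels and -0.014 in the last.

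Nars, which charges asparagine, was highest relative to EDG9.5 in Reactivated trophoblast, followed by the threonine enzyme Tars. Nars had 480.2 CPM in Reactivated and 158.5 CPM in EDG9.5 trophoblast, a ratio of 3.03 (2.75 to 3.34). Tars had 146.2 CPM in Reactivated and 56.5 CPM in EDG9.5 trophoblast, 2.59-fold (2.18 to 3.08). Iars, for isoleucine, was the 1 cytosolic gene that was lower, at 105 CPM in Reactivated and 338 CPM in EDG9.5, a ratio of 0.311 (0.268 to 0.359). The glutamine enzyme Qars came next from the bottom with 105.5 and 95.6 CPM, an interval of 0.931 to 1.30 that includes 1.

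Endoderm shared the difference in Nars but not that in Iars. Nars had 460 CPM in Reactivated and 239.8 CPM in EDG9.5 endoderm (1.92-fold, 1.77 to 2.08), and the histidine enzyme Hars had 122.5 and 60.4 CPM (2.03-fold, 1.74 to 2.38). Wars, the tryptophan enzyme, was lower in endoderm with 52.2 CPM in Reactivated and 106.5 CPM in EDG9.5 (0.490, 0.416 to 0.576). Iars had 121.2 CPM in Reactivated and 144.5 CPM in EDG9.5 endoderm. Its log2 ratio of -0.24 stayed within 1.5-fold and was 0.070 with TMM factors.

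In Reactivated over EDG9.5 epiblast, 4 of the 20 cytosolic genes were higher and 0 lower, where 19.4% of all genes were higher. With TMM factors 9 were higher, against 27.9% of all genes, so which enzymes pass 1.5-fold depends on the scaling. The higher genes named here are those found without TMM factors. The valine enzyme Vars had 136.2 CPM in Reactivated and 39.7 CPM in EDG9.5 epiblast, 3.43-fold (2.74 to 4.32). Kars had 345.4 CPM in Reactivated and 129.8 CPM in EDG9.5, 2.66-fold (2.34 to 3.03). Farsb (298.5 and 135.7 CPM) and Farsa (77.3 and 40.5 CPM) were the other genes past 1.5-fold, so both subunits of the phenylalanine enzyme were higher; the Farsa log2 ratio of 0.79 was 0.55 in cells thinned to 1000 UMIs. At the low end Cars, for cysteine, had 42.2 CPM in Reactivated and 64.5 CPM in EDG9.5, and Sars, for serine, had 161.2 and 211.9 CPM, neither past 1.5-fold. Farsb and Vars were the cytosolic genes higher in all 3 lineages in this comparison; Farsb had 233.8 CPM in Reactivated and 131.7 CPM in EDG9.5 endoderm, and 205.9 and 82.3 CPM in trophoblast.

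E5.5 embryos were set against EDG9.5 embryos in the same way, as the stage after implantation against late diapause; this comparison shares the EDG9.5 library with the one above, so the 2 are not independent. In trophoblast 19 of 20 cytosolic genes were higher in E5.5 and 1 was lower, against 33.2% and 22.7% of 8187 genes. In epiblast 8 were higher and 0 lower, against 22% and 33.5% of 8744 genes. In endoderm only 2 were higher and 1 lower, against 19.5% and 26.3% of 8766 genes. The cytosolic medians were 1.26 in trophoblast (interval over the members 1.03 to 1.44), 0.37 in epiblast (0.032 to 0.65) and 0.26 in endoderm (0.12 to 0.41). They lay 1.09, 0.55 and 0.38 above the medians of all genes, which were 0.18, -0.18 and -0.11.

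With TMM factors the E5.5 counts were 18 higher and 1 lower in trophoblast, 10 and 0 in epiblast, and 7 and 1 in endoderm. All genes then gave 29.9% higher and 24.9% lower, 30.5% and 25.5%, and 28% and 18.9% in that order. Totals that leave out ribosomal protein genes and those of the mitochondrial genome gave 1 higher and 2 lower in endoderm, so the endoderm split depends on the scaling. Relative to all genes, the endoderm list lay 0.39 above under TMM and 0.38 above with those totals. The share of higher genes among all genes called was 39.7% in epiblast and 42.6% in endoderm, and 54.5% and 59.7% with TMM.

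Tars was the enzyme with the highest ratio in E5.5 trophoblast. It had 303.7 CPM in E5.5 and 56.5 CPM in EDG9.5 trophoblast, 5.38-fold (4.75 to 6.12), and 255.3 against 159.6 CPM in epiblast and 179.7 against 110.2 CPM in endoderm. Nars followed with 641.1 CPM in E5.5 and 158.5 CPM in EDG9.5 trophoblast, 4.04-fold (3.75 to 4.36), while epiblast had 349.1 and 363.3 CPM. Rars, for arginine, had 331.9 CPM in E5.5 and 129 CPM in EDG9.5 trophoblast, with 276.2 against 173.4 CPM in epiblast and 264.6 against 159.2 CPM in endoderm. Tars and Rars were the cytosolic genes higher in all 3 lineages in E5.5; in endoderm their log2 ratios of 0.66 and 0.70 were under 1.5-fold (0.49 and 0.40) in cells thinned to 1000 UMIs.

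The lowest E5.5 ratios differed by lineage. In trophoblast, below Qars (149.7 CPM in E5.5 and 95.6 CPM in EDG9.5, log2 ratio 0.60, and 0.48 to 0.52 in 3 alternative settings), only Iars was lower, as described below. In endoderm the lowest ratio was that of Wars, described below, and Qars was next with 73.2 CPM in E5.5 and 110.2 CPM in EDG9.5 (0.664, 0.597 to 0.740), within 1.5-fold. In epiblast, Sars had 161.4 CPM in E5.5 and 211.9 CPM in EDG9.5, and Cars 48.3 and 64.5 CPM, also within 1.5-fold. By counting error alone, the E5.5 to EDG9.5 interval lay above 1 for 19 of 20 cytosolic genes in trophoblast, 13 in epiblast and 13 in endoderm. It lay below 1 for 1, 4 and 4. These intervals were counted for the synthetases only. Without a share over all genes, the counts do not set the synthetases apart from other genes.

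Kars had the highest ratio in E5.5 epiblast. Its levels in epiblast were 139.7 CPM in EDG7.5, 129.8 CPM in EDG9.5, 345.4 CPM in Reactivated and 435.7 CPM in E5.5, and the E5.5 to EDG9.5 ratio was 3.36 (3.01 to 3.76). In trophoblast it had 133.5, 123.9, 253.2 and 352.1 CPM, and in endoderm 149.6, 132.5, 196.7 and 179.7 CPM. The 3 lineages were close in both diapause libraries and spread apart after it, with epiblast above trophoblast and trophoblast above endoderm. Gars, the other gene that serves both compartments, had 216.7, 208.4, 255.6 and 314.5 CPM in epiblast, 164, 160.2, 247.1 and 239.3 CPM in endoderm, and 118, 104.7, 175.3 and 266.6 CPM in trophoblast. Its E5.5 over EDG9.5 log2 ratio was 1.27 in trophoblast, 0.57 in epiblast and 0.55 in endoderm, past 1.5-fold in trophoblast alone.

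**Figure D3:**
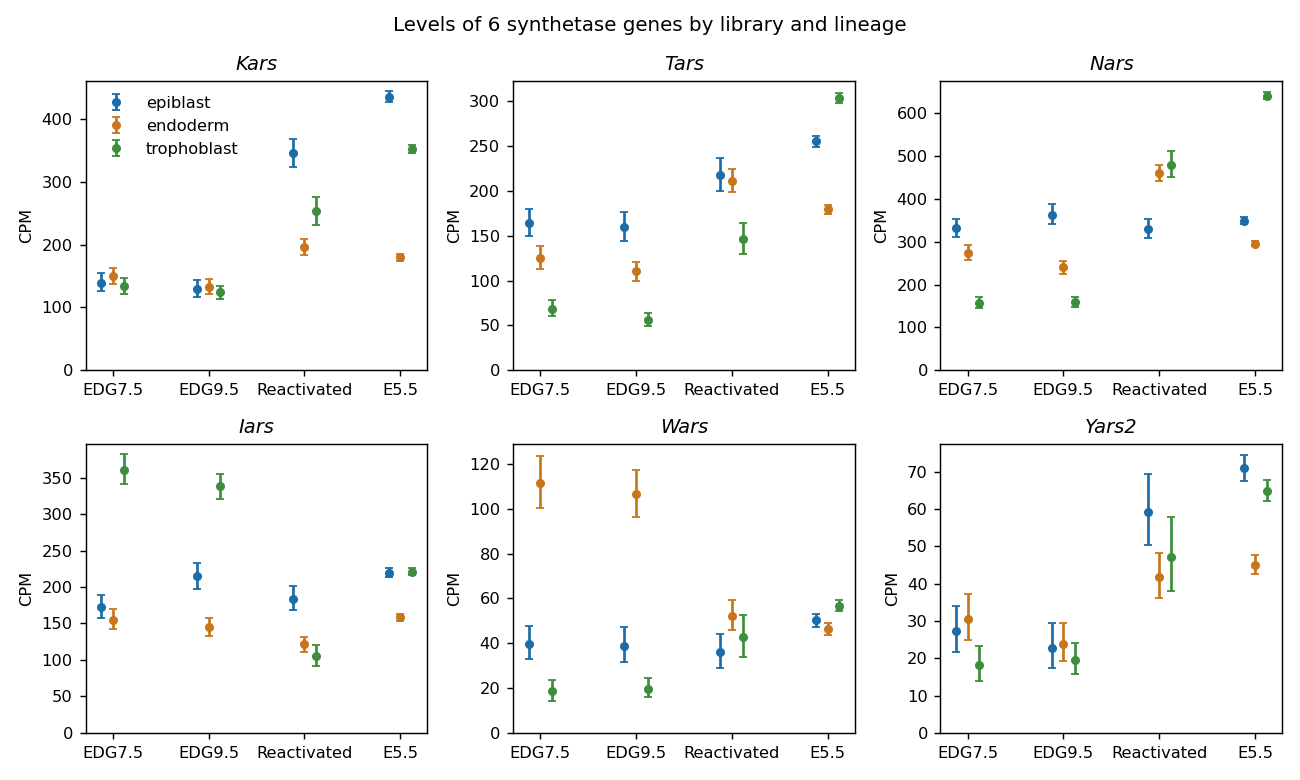
CPM of 6 synthetase genes in the 4 libraries, by lineage, with 95% Poisson intervals as bars. Kars, Tars, Nars and Yars2 are higher in Reactivated and E5.5 than in EDG9.5 trophoblast, Iars is lower there (105 and 220.8 CPM against 338 CPM), and Wars is lower in endoderm and higher in trophoblast.

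Iars and Wars departed from the rest of the cytosolic list. Trophoblast Iars had 360.7 CPM at EDG7.5 (340.5 to 381.8) and 338 CPM at EDG9.5 (321.2 to 355.4), but 105 CPM in Reactivated (91.23 to 120.2) and 220.8 CPM at E5.5 (215.8 to 226). Diapause trophoblast was thus above epiblast (172.9 CPM in EDG7.5 and 214.7 CPM in EDG9.5) and endoderm (155.4 and 144.5 CPM), and Reactivated trophoblast was below both (184.2 CPM in epiblast and 121.2 CPM in endoderm). By cluster of cells within trophoblast, the 4 Reactivated clusters had 59.5 to 136.4 CPM and the 4 EDG9.5 clusters 199.4 to 380.7 CPM, with no overlap, although the lowest EDG9.5 cluster was below the EDG9.5 epiblast level and the highest Reactivated cluster above the Reactivated endoderm level. Its E5.5 over EDG9.5 log2 ratio was -0.59, just past 1.5-fold, and -0.57 without the E5.5 cluster of 789 cells led by placental lactogen genes or -0.58 with at least 2000 UMIs per cell. Then 0 cytosolic genes were lower in that comparison.

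Wars went in opposite directions in 2 lineages. In endoderm it had 111.6 CPM in EDG7.5, 106.5 CPM in EDG9.5, 52.2 CPM in Reactivated and 46.2 CPM in E5.5. Trophoblast had 18.5, 19.8, 42.7 and 56.9 CPM in the same libraries, and epiblast 39.9, 38.9, 35.9 and 50.3 CPM. Endoderm was above trophoblast in both diapause libraries, and the lineages lay close together in Reactivated and E5.5. Its E5.5 over EDG9.5 ratio was 0.434 (0.388 to 0.487) in endoderm and 2.87 (2.32 to 3.59) in trophoblast.

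**Figure D4:**
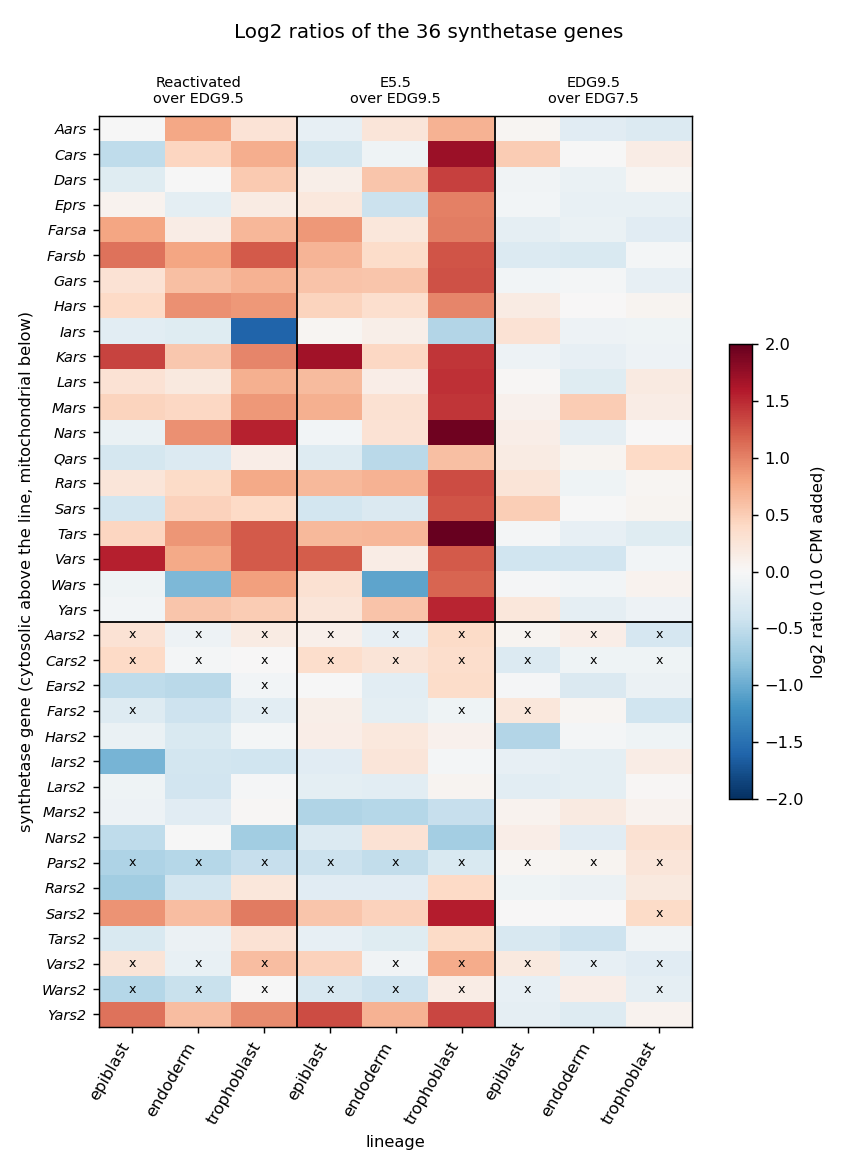
Log2 ratio (colour, 10 CPM added) of the 36 synthetase genes in 3 comparisons and 3 lineages; x marks a gene below the level filter in that comparison. In the trophoblast columns of Reactivated and E5.5 over EDG9.5 the cytosolic rows are red except Iars, and among mitochondrial rows Sars2 and Yars2 are red in all 6 columns.

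Among the mitochondrial genes, most that passed the filter stayed within 1.5-fold. In Reactivated over EDG9.5, 2 were higher and 2 lower of 10 in epiblast, 2 higher and 0 lower of 11 in endoderm, and 2 higher and 1 lower of 9 in trophoblast. The higher counts were near the shares of all genes given above (19.4% higher and 36.9% lower in epiblast, 18% and 29.2% in endoderm, 25.4% and 27.5% in trophoblast). The medians were -0.22, -0.30 and 0.031, which lay 0.040, -0.13 and 0.077 from the median of all genes. Under TMM the medians were 0.013, -0.080 and 0.035, so the sign in epiblast depends on the scaling. The epiblast counts were then 2 higher and 1 lower, where all genes gave 27.9% higher and 26.9% lower. Totals that leave out ribosomal protein genes and those of the mitochondrial genome gave 1 higher and 1 lower in endoderm and turned the trophoblast median to -0.069. For E5.5 over EDG9.5, 1 was higher and 1 lower of 12 in epiblast, 1 higher and 0 lower of 11 in endoderm, and 2 higher and 1 lower of 10 in trophoblast, with medians of -0.081, -0.20 and 0.23. All genes gave 22% higher and 33.5% lower, 19.5% and 26.3%, and 33.2% and 22.7% in those lineages. With TMM factors the epiblast split was 3 higher and 0 lower, where all genes gave 30.5% higher and 25.5% lower. The medians of epiblast and endoderm were then 0.20 and 0.028. The other totals gave 1 higher and 1 lower in endoderm.

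The mitochondrial genes counted as higher were Sars2 and Yars2, the enzymes for serine and tyrosine. Yars2 had 27.3, 22.8, 59.3 and 71.0 CPM in epiblast from EDG7.5 to E5.5, 30.7, 24.0, 41.9 and 45.1 CPM in endoderm, and 18.2, 19.6, 47.2 and 64.9 CPM in trophoblast. Its Reactivated over EDG9.5 ratio was 2.60 (1.91 to 3.58) in epiblast, 1.75 (1.36 to 2.27) in endoderm and 2.41 (1.79 to 3.27) in trophoblast. Sars2 had 19.6, 19.7, 45.3 and 33.6 CPM in epiblast, 14.7, 14.9, 28.0 and 24.1 CPM in endoderm, and 5.16, 9.78, 30.6 and 49.0 CPM in trophoblast. Yars2 was higher than in EDG9.5 in all 3 lineages in both Reactivated and E5.5, and Sars2 in all 3 in Reactivated and in trophoblast in E5.5. The endoderm values stood close to the line: the Reactivated log2 ratio of Yars2 was 0.61, and 0.47 without 1 Reactivated endoderm cluster of 100 cells. That of Sars2 was 0.61 in endoderm and 1.04 in trophoblast, and 0.056 and 0.26 in cells thinned to 1000 UMIs. The thinned sum of Reactivated trophoblast, with 163 cells, holds few UMIs of a gene at such levels.

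Their cytosolic partners were not higher in epiblast. There, Yars had 42.5 CPM in Reactivated and 44.8 CPM in EDG9.5, and Sars had 161.2 and 211.9 CPM. In Reactivated endoderm Sars had 364.7 CPM, against 261.1 CPM in EDG9.5, within 1.5-fold. In E5.5 trophoblast both pairs were higher: Yars had 80.5 CPM against 21.4 CPM in EDG9.5, and Sars 262.9 against 104.5 CPM. Isoleucine showed the reverse pairing in epiblast alone. There the mitochondrial Iars2 was lower, with 19.1 CPM in Reactivated and 45.6 CPM in EDG9.5 (0.419, 0.294 to 0.590). Iars stayed within 1.5-fold in that lineage (184.2 and 214.7 CPM). In Reactivated trophoblast Iars was the lower gene (0.311). Iars2 had 30.1 CPM there and 42.7 CPM in EDG9.5 trophoblast, within 1.5-fold (log2 ratio -0.39). Rars2 in epiblast had 34.3 CPM in Reactivated and 61.7 CPM in EDG9.5, with a log2 ratio of -0.69 that was -0.42 under TMM, while Rars had 208 and 173.4 CPM. For asparagine, Nars2 in trophoblast had 24.1 CPM in Reactivated, 24.6 CPM in E5.5 and 45.4 CPM in EDG9.5, against the higher Nars described above. The Reactivated log2 ratio of Nars2 was -0.70, and -0.36 in cells thinned to 1000 UMIs.

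Other mitochondrial members were sparse. Mars2, the methionine enzyme, had 5.91 CPM in E5.5 and 14.2 CPM in EDG9.5 epiblast (log2 ratio -0.60; -0.45 under TMM), 7.49 and 15.97 CPM in endoderm, and 8.92 and 16.01 CPM in trophoblast. At the low end in Reactivated endoderm, Ears2 for glutamate had 7.48 CPM against 15.4 CPM in EDG9.5, and Fars2 for phenylalanine 7.70 against 13.6 CPM, both within 1.5-fold. Aars2, Cars2 and Pars2 (alanine, cysteine and proline) stayed under the filter in every lineage and comparison, with at most 7.45 CPM. Vars2 and Wars2, for valine and tryptophan, passed it in 1 each. No difference is read from genes below the filter.

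The 2 diapause libraries differed little. In EDG9.5 over EDG7.5, 0 of 20 cytosolic genes were higher or lower in any lineage, where all genes gave 0.965% higher and 1.26% lower of 8805 in epiblast, 1.24% and 1.32% of 8814 in endoderm, and 1.51% and 1.55% of 7790 in trophoblast. The cytosolic medians were 0.029 in epiblast, -0.13 in endoderm and -0.014 in trophoblast; the trophoblast value was 0.019 under TMM. Of the mitochondrial genes that passed, 1 of 10 was lower in epiblast, Hars2 with 14.2 CPM in EDG9.5 and 26.3 CPM in EDG7.5 (0.539, 0.352 to 0.813), and 0 of 12 and 0 of 10 in endoderm and trophoblast. That call was lost under TMM (log2 ratio -0.54). The share of higher genes among the few genes called went to 57.7%, 62.1% and 60.2% with TMM, against 43.4%, 48.4% and 49.4%.

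Within 1.5-fold, Cars and Sars had the highest diapause ratios in epiblast, and Mars, for methionine, in endoderm. Cars in epiblast had 64.5 CPM in EDG9.5 and 42.4 CPM in EDG7.5, Sars 211.9 and 148.1 CPM, and Mars in endoderm 28.2 and 16.9 CPM. Vars was the lowest ratio in epiblast (39.7 and 55.3 CPM) and in endoderm (55.1 and 74.5 CPM), followed in both by Farsb. These are the genes that were higher in all 3 Reactivated lineages over EDG9.5, a comparison with EDG9.5 in common. In trophoblast, Qars had 95.6 CPM in EDG9.5 and 69.8 CPM in EDG7.5 (1.37, 1.165 to 1.615) and Aars 97.0 and 118.9 CPM. The sums of all 20 genes gave EDG9.5 over EDG7.5 ratios of 1.05 (1.01 to 1.08) in epiblast, 0.914 (0.888 to 0.941) in endoderm and 0.963 (0.931 to 0.995) in trophoblast.

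E5.5 and Reactivated embryos were compared by levels only. The cytosolic sum was 1.53 times as high in E5.5 as in Reactivated trophoblast (1.49 to 1.57), 1.11 times in epiblast (1.08 to 1.13) and 0.844 times in endoderm (0.829 to 0.858). Trophoblast therefore went further above diapause levels at E5.5, and endoderm was nearer to them. In trophoblast, Yars had 80.5 CPM in E5.5 and 34.7 CPM in Reactivated, and Tars 303.7 and 146.2 CPM, while Vars (76 and 75.85 CPM) and Farsb (210.4 and 205.9 CPM) had intervals that include 1. Endoderm Sars had 211.7 CPM in E5.5 and 364.7 CPM in Reactivated, and Nars 295.3 and 460 CPM. Dars, for aspartate, was at the other end in endoderm, with 170.5 CPM in E5.5 and 112.9 CPM in Reactivated.

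Clusters within a lineage showed how widely the enzymes varied among cells of 1 library. The cytosolic sum was 3905 to 4754 CPM over 5 trophoblast clusters in E5.5 and 1710 to 2003 CPM over 4 in EDG9.5, with no overlap. Reactivated trophoblast was the most uneven, with clusters from 2017 CPM (33 cells) to 3163 CPM (52 cells, led by Hand1 and Ascl2). Epiblast clusters were close to each other, 3330 and 3420 CPM in Reactivated and 3622 to 3798 CPM in E5.5, against 2840 and 2844 CPM in EDG9.5. Endoderm clusters of Reactivated had 3233 to 3596 CPM and those of E5.5 2745 to 2987 CPM, and a small EDG9.5 endoderm cluster of 42 cells had 3455 CPM (3078 to 3866) beside 2441 and 2534 CPM in the others. In trophoblast the epiblast marker list also differed, with 602.8 CPM in Reactivated, 933.5 CPM in E5.5 and 145 CPM in EDG9.5, and Pou5f1, Fgf4, Gdf3 and Fgf5 were at 0 in Reactivated. The uterine epithelium list had 267.2 CPM in Reactivated, 52.8 CPM in E5.5 and 169.4 CPM in EDG9.5 trophoblast. The endoderm list had 27.6, 46.0 and 285.3 CPM in the same order, and the endothelium list 31.65, 220 and 3.56 CPM. In endoderm the epiblast list had 1177 CPM in Reactivated, 944.4 CPM in E5.5 and 499.3 CPM in EDG9.5, with Fgf4 at 0 in Reactivated and Fgf5 at 0 in EDG9.5, and the trophoblast list 140.2, 298.7 and 54.6 CPM. In epiblast the trophoblast list had 111.2, 89.7 and 466 CPM in those libraries, and the endothelium list 53.1, 8.93 and 205.7 CPM. The part of these in the synthetase values was not tested.

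**Figure D5:**
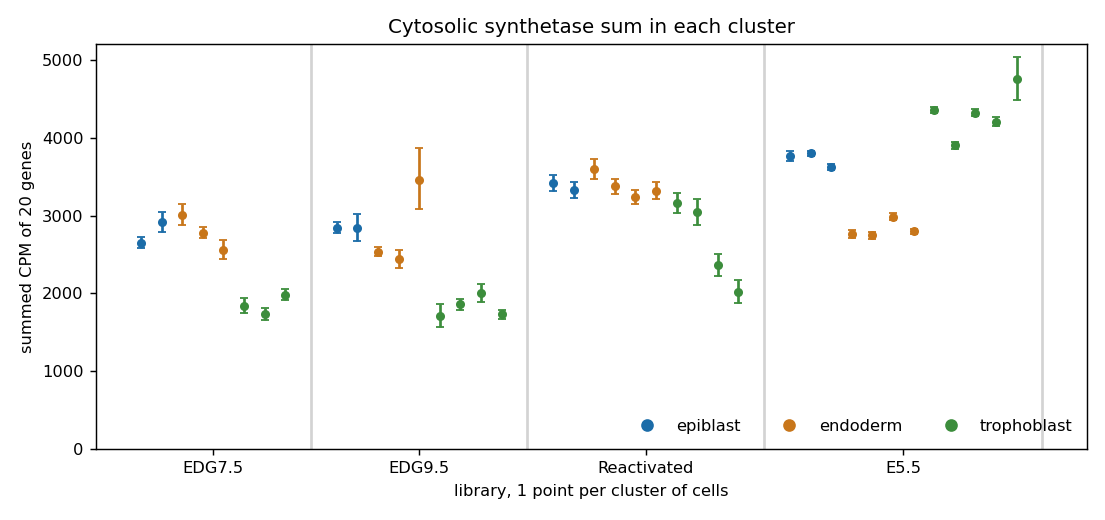
Summed CPM of the 20 cytosolic synthetase genes in each cluster of cells, grouped by library, with 95% Poisson intervals as bars and colours for lineages. E5.5 trophoblast clusters lie at 3905 to 4754 CPM and EDG9.5 trophoblast clusters at 1710 to 2003 CPM; Reactivated trophoblast clusters spread from 2017 to 3163 CPM.

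Members of the multisynthetase complex (Dars, Eprs, Iars, Kars, Lars, Mars, Qars and Rars) were divided. In Reactivated over EDG9.5, 4 of the 8 were higher and 1 lower in trophoblast, 0 and 0 in endoderm, and 1 and 0 in epiblast, with medians of 0.62, 0.10 and 0.16. Of all genes 25.4% were higher and 27.5% lower in trophoblast, 18% and 29.2% in endoderm, and 19.4% and 36.9% in epiblast. Their sum in trophoblast was 1164 CPM in Reactivated and 1042 CPM in EDG9.5 (1.12, 1.06 to 1.17), Iars included. For E5.5 over EDG9.5, 7 were higher and 1 lower in trophoblast, 4 and 0 in epiblast, and 1 and 0 in endoderm. All genes gave 33.2% higher and 22.7% lower, 22% and 33.5%, and 19.5% and 26.3% in that order of lineages. Eprs had 455.1 CPM in E5.5, 248.6 CPM in Reactivated and 220.6 CPM in EDG9.5 trophoblast, so it was past 1.5-fold in E5.5 alone. In endoderm Eprs had 334.7, 393.5 and 453 CPM in those libraries, with log2 ratios of -0.43 and -0.20, the second of which was 0.12 under TMM. Of the scaffolds, Eef1e1 had 284.9 CPM in E5.5, 192.4 CPM in Reactivated and 84.9 CPM in EDG9.5 trophoblast, and 147.6, 85.7 and 79.1 CPM in endoderm. Aimp1 had 224, 270.7 and 178.6 CPM in trophoblast, within 1.5-fold, and Aimp2 was at most 8.86 CPM.

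Cytosolic enzymes described as ATF4 targets (13 genes) had medians close to those of the other 7 in trophoblast. Their ratios of summed CPM were lower there, and this rested on Iars, the 1 lower gene among them. In that lineage 8 of 13 were higher and 1 lower in Reactivated over EDG9.5 (median 0.71), and 5 of 7 were higher and 0 lower among the others (median 0.76). For E5.5 the counts were 12 higher and 1 lower, and 7 and 0, with medians of 1.27 and 1.26. Of all trophoblast genes 25.4% were higher and 27.5% lower in Reactivated, and 33.2% and 22.7% in E5.5. The summed CPM of the 13 genes was 1697 in Reactivated and 1210 in EDG9.5 trophoblast (1.402, 1.342 to 1.463), and that of the other 7 was 1062 and 592.6 (1.793, 1.693 to 1.899). For E5.5 over EDG9.5 the ratios of the sums were 2.282 (2.221 to 2.346) for the 13 and 2.453 (2.359 to 2.552) for the 7. The sums of the 13 include Iars, with 105 CPM in Reactivated, 220.8 CPM in E5.5 and 338 CPM in EDG9.5 trophoblast. In epiblast the sums gave Reactivated over EDG9.5 ratios of 1.056 (1.016 to 1.097) for the 13 and 1.515 (1.433 to 1.602) for the 7. By counts, in Reactivated epiblast, 1 of the 13 was higher (median -0.0073) and 3 of the other 7 (median 0.40), against 19.4% of all genes. The 5 genes whose promoters are printed above also went different ways in trophoblast: E5.5 over EDG9.5 log2 ratios were 2.24 for Tars, 1.53 for Yars, 1.27 for Gars, 0.70 for Aars and -0.59 for Iars. The Aars value was 0.57 in cells thinned to 1000 UMIs. Aars, for alanine, had 164.1 CPM in E5.5, 119.5 CPM in Reactivated and 97.0 CPM in EDG9.5 trophoblast.

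The wider list of integrated stress response and amino acid supply genes (18 genes) differed in size between lineages in Reactivated and in direction in E5.5. In Reactivated over EDG9.5, 9 of 13 that passed were higher and 1 lower in trophoblast (median 1.88), 7 and 4 of 15 in endoderm (median 0.48), and 7 and 3 of 16 in epiblast (median 0.54). All genes gave 25.4% higher and 27.5% lower in trophoblast, 18% and 29.2% in endoderm, and 19.4% and 36.9% in epiblast. Genes that passed the level filter only through the library where they were high, such as Psph and Slc7a1 in trophoblast, are more likely to be counted as different. These counts and medians therefore describe only the genes that passed. The sum over all 18 genes gave a Reactivated over EDG9.5 ratio of 3.389 (3.254 to 3.529) in trophoblast, but 0.8102 (0.7869 to 0.8341) in endoderm and 0.9072 (0.876 to 0.9395) in epiblast, opposite in direction to the medians there. Those 2 lower sums rested on Asns, which had 247.3 CPM in Reactivated and 887.1 CPM in EDG9.5 endoderm, and 276.3 and 1048 CPM in epiblast. For E5.5 the counts were 9 and 2 of 14 in trophoblast, 5 and 6 of 13 in endoderm and 5 and 6 of 15 in epiblast, with medians of 1.71, -0.52 and -0.17 and ratios of the sums of 3.099 (3.001 to 3.201), 0.5999 (0.5864 to 0.6138) and 0.5514 (0.537 to 0.5662). All genes gave 33.2% higher and 22.7% lower, 19.5% and 26.3%, and 22% and 33.5% in that order. Asns, which makes asparagine, had 276.3 CPM in Reactivated, 87.95 CPM in E5.5 and 1048 CPM in EDG9.5 epiblast, but 172.8, 355.8 and 33.1 CPM in trophoblast. Nars, whose substrate Asns makes, was likewise higher in trophoblast, while in endoderm it was higher in Reactivated (460 and 239.8 CPM) with Asns lower (247.3 and 887.1 CPM). Psat1, of serine synthesis, had 888.1 CPM in Reactivated, 662.2 CPM in E5.5 and 15.8 CPM in EDG9.5 trophoblast. Phgdh, of the same pathway, had 55.4 CPM in Reactivated, 134.8 CPM in E5.5 and 10.7 CPM in EDG9.5 endoderm, and Shmt2, of mitochondrial serine use, had 497.2 CPM in Reactivated and 86.5 CPM in EDG9.5 epiblast. Ddit3, the stress factor CHOP, had 16 CPM in Reactivated, 3.45 CPM in E5.5 and 178.9 CPM in EDG9.5 epiblast. Atf4 itself had 290.8, 380.6 and 348.9 CPM in trophoblast and 392.6, 252.3 and 516.3 CPM in epiblast for Reactivated, E5.5 and EDG9.5.

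Neighbouring steps of translation gave smaller lists. Of 6 elongation factor genes that carry or recharge the carriers of charged tRNA, 3 were higher and 1 lower in Reactivated over EDG9.5 epiblast, 1 higher and 1 lower in endoderm, 2 higher and 1 lower in trophoblast, and 5, 0 and 4 were higher and 0 lower in E5.5 over EDG9.5 in that order of lineages. Eef1a1, which delivers charged tRNA to the ribosome, was the lower gene in all 3 Reactivated lineages, with 869 CPM in Reactivated and 2552 CPM in EDG9.5 trophoblast (0.341, 0.324 to 0.358), whereas Eef1d, of its exchange factor, had 1132 and 486.3 CPM. Eef1b2, another exchange factor subunit, had 3005 CPM in Reactivated and 2868 CPM in EDG9.5 trophoblast. Of 5 partners of mitochondrial tRNA charging, Trnt1, which adds the CCA end to tRNAs, had 145.9 CPM in E5.5 and 50.7 CPM in EDG9.5 trophoblast, and 34.2 CPM in Reactivated and 84.6 CPM in EDG9.5 endoderm; Gatc, a subunit of the amidotransferase that makes glutaminyl-tRNA, stayed within 1.5-fold. That list had 0 higher and 0 lower of 4 in Reactivated epiblast, 0 and 1 of 5 in endoderm and 1 and 0 of 5 in trophoblast. In E5.5 it had 3 and 0 of 5, 1 and 1 of 5, and 2 and 0 of 5. In that order of lineages, all genes gave 19.4% higher and 36.9% lower, 18% and 29.2%, and 25.4% and 27.5% in Reactivated. For E5.5 the shares were 22% and 33.5%, 19.5% and 26.3%, and 33.2% and 22.7%. Counts of such short lists were not tested against these shares. Of 4 proofreading genes, Dtd1, a D-aminoacyl-tRNA deacylase, was the 1 past 1.5-fold, in E5.5 epiblast (32.4 and 8.26 CPM in EDG9.5) and E5.5 trophoblast (44.3 and 10.0 CPM), with Prorsd1 (79.4 CPM in Reactivated and 54.7 CPM in EDG9.5 trophoblast) within it. In EDG9.5 over EDG7.5 the elongation factors did differ in trophoblast, where 2 of 5 that passed the filter, Eef1a1 and Eef1b2, were higher, against 1.51% of all genes, and the sum of the 6 was 6426 CPM in EDG9.5 and 4197 CPM in EDG7.5 (1.531, 1.5 to 1.563). The sum was also higher in epiblast (1.251, 1.217 to 1.286) and endoderm (1.312, 1.287 to 1.338), with 0 genes past 1.5-fold in either. The charging partners and proofreading genes had 0 past 1.5-fold in that comparison. The stress response list had 2 higher and 0 lower of 14 in epiblast, 1 and 1 of 15 in endoderm and 0 and 0 of 10 in trophoblast. All genes gave 0.965% higher and 1.26% lower, 1.24% and 1.32%, and 1.51% and 1.55% in that order.

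Some member loci overlap other genes, and the strand setting of the authors' counting is not given in the sources used here, so reads of overlapping genes could be split between them or lost. In the GRCm38 annotation (GENCODE M21), Mars (chromosome 10, 127296221 to 127311786, minus strand) overlaps Ddit3 on the other strand. Wars (chromosome 12, 108860030 to 108894174, minus strand) overlaps the protein-coding gene Wdr25, and Yars (chromosome 4, 129189760 to 129219607, plus strand) overlaps C77080. Hars and Hars2 lie head to head on chromosome 18 and overlap at their starts, Iars2 (chromosome 1) overlaps Rab3gap2, and Farsb (chromosome 1) overlaps Sgpp2. Iars (chromosome 13, 49682100 to 49734267, plus strand) holds small nucleolar RNA genes only. Kars (chromosome 8, 111993443 to 112011323, minus strand), Tars (chromosome 15, 11382301 to 11399665, minus strand), Rars, Nars, Vars, Sars2 (chromosome 7, 28741992 to 28753871, plus strand) and Yars2 (chromosome 16, 16302965 to 16309640, plus strand) overlap no annotated gene.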

How the data were processed

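The authors deposited 1 table of raw UMI counts per library (genes by cell barcodes). Per the submitters' processing notes, UMI-tools 1.0.1, STAR 2.7.1a and featureCounts 1.6.4 of Subread were used with the mm10 build; for the annotation, strand setting and barcode rule, the sources used here give nothing. Barcodes with at least 1000 UMIs, 500 genes and under 25% mitochondrial UMIs were kept, and doublets called by Scrublet (scanpy 1.11.5) removed, leaving 1658 cells of EDG7.5, 2452 of EDG9.5, 672 of Reactivated and 9262 of E5.5. Each library was clustered on its own (2000 variable genes, 30 components, 15 neighbours, Leiden resolution 1). A cluster took the lineage of the leading marker list when it led by 0.5 in log2 and 3 markers reached 20 CPM, so a difference from the study's own annotation may come from these rebuilt names. UMIs were summed per lineage and library. Levels carry exact Poisson intervals, and ratios exact conditional binomial ones, at 95%. TMM factors came from edgeR 4.0.16, used for scaling alone.

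With 1 library per stage no test was run and no p-value is given. In each comparison and lineage the named members are the top 2 and bottom 2 of each class by log2 ratio, those past 1.5-fold in all 3 lineages, their cytosolic or mitochondrial partners, and Kars and Gars (every member past 1.5-fold was also recomputed under the alternatives); others that appear were chosen after their values were seen. The members, lists and rules were chosen with earlier results of these data known. The interval code was tested on simulated data. The alternatives tried were 2000 UMIs per cell, 10% mitochondrial UMIs, Leiden resolution 2, TMM factors, library totals that leave out ribosomal protein genes and those of the mitochondrial genome, cells thinned to 1000 UMIs, a mean over cells, 1 CPM added, no level filter, and leaving out clusters with a marker of another list among their leading genes. The last was added after seeing the data. E4.5 embryos, named in the series text, were not analysed here.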

Additional observations from a re-analysis of the deposited data

Results flagged for a closer look

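Wars, the tryptophan enzyme, differed from EDG9.5 in opposite directions in 2 lineages, past 1.5-fold in both. In Reactivated its log2 ratio was 0.82 in trophoblast and -0.91 in endoderm. In E5.5 it was 1.17 in trophoblast and -1.05 in endoderm. Each value rests on 1 library per stage, both comparisons use the EDG9.5 library, and the difference between the lineages was not tested. Over the alternatives the endoderm values ran from -1.03 to -0.62 in Reactivated and from -1.20 to -0.81 in E5.5, and the trophoblast values from 0.75 to 1.35 in Reactivated and from 1.08 to 1.48 in E5.5. Endoderm clusters had 42.8 to 58.8 CPM of Wars in Reactivated, 34.8 to 72.9 CPM in E5.5 and 78 to 136.4 CPM in EDG9.5, so the endoderm clusters of Reactivated and E5.5 did not reach those of EDG9.5. Trophoblast clusters had 20.7 to 50 CPM in Reactivated, 54.0 to 64.6 CPM in E5.5 and 10.98 to 36.25 CPM in EDG9.5, so those of Reactivated overlapped those of EDG9.5 and those of E5.5 did not. Wars overlaps Wdr25, and the part of that overlap was not tested.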

How the results depend on the processing

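Only the cytosolic and mitochondrial lists and their members were recomputed under the 10 alternatives. No median of these 2 lists past 1.5-fold changed sign, and 176 recomputed medians stayed within their interval over the members. The 4 exceptions were the cytosolic median of Reactivated over EDG9.5 epiblast, 0.16 and 0.485 with TMM factors; that of E5.5 over EDG9.5 endoderm, 0.26 and 0.50 with TMM factors; the mitochondrial median of Reactivated over EDG9.5 endoderm, -0.30 and -0.426 with 1 CPM added; and that of E5.5 over EDG9.5 endoderm, -0.20 and -0.292 with totals that leave out ribosomal protein genes and those of the mitochondrial genome. Of the recomputed counts of genes past 1.5-fold, 50 differed by over 1.5 times and 310 did not, and of single members' values 71 moved beyond their interval, 1158 did not and 1 reversed: Mars in Reactivated over EDG9.5 trophoblast, 0.87, was -0.212 in cells thinned to 1000 UMIs. In that setting Reactivated trophoblast has 163 cells with 1000 UMIs each, so single genes rest on few UMIs. The cause was not tested. No paired analysis was possible because each stage has 1 library, and no library could be left out. Depth limits the mitochondrial genes most: those near 10 CPM rest on few UMIs in Reactivated trophoblast, which had 1990829 UMIs in all.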
